A study of Mus musculus with 19 samples.

Results

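The genes of fatty acid and cholesterol synthesis were followed across 10 liver tumours of a single mouse genotype. The set held 37 genes chosen by symbol, 19 of the sterol branch and 18 of the fatty acid branch, with the regulators and the transport protein that belong to each. All 37 were found by Ensembl identifier among the 39179 gene identifiers of the count table, and all 37 passed the filter on low counts, as did 12462 genes in all.

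The tumours arose in male mice that carried Ctnnb1tm1Mmt (HET), a single copy of an activatable β-catenin allele, and Gt(ROSA)26Sortm1(MYC)Djmy (HOM), a human MYC transgene. Every animal of the series received AAV8.TBG.PI.Cre.rBG, a virus whose TBG promoter restricts Cre recombinase to hepatocytes. Tumour mice received 640000000 genome copies per mouse, a dose that the study set to reach scattered single hepatocytes. The labels list 13 tumours, 3 controls at this dose and 3 livers given 200000000000 genome copies, all of this genotype. The 10 tumours numbered 04 to 13 were analysed. The other 3 tumours and both control groups were not analysed here, so the question that could be addressed was how tumours of 1 genotype differ from one another, and no value was set against non-tumour liver. Column names carried tags that were shared by tumours 05 and 06, by tumours 07 and 08, by tumours 09 and 10 and by tumours 11 to 13, while tumour 04 had its own. Nothing in the labels says what a tag stands for or which tumours came from separate mice, and p-values therefore measure only the spread between these tumours.

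Both branches start from cytosolic acetyl-CoA. Fatty acid synthase builds palmitate from malonyl-CoA, and elongases and desaturases then extend and unsaturate the chain before it is built into triglycerides and phospholipids. The sterol branch leads through mevalonate and farnesyl diphosphate to squalene, lanosterol and cholesterol. In liver the transcription factors SREBP-1 (Srebf1) and SREBP-2 (Srebf2) are held in the endoplasmic reticulum while sterols are plentiful, and once released SREBP-2 mainly activates the sterol genes and SREBP-1c the fatty acid genes. Insulin and carbohydrate act on the fatty acid branch as well, the latter through ChREBP (Mlxipl).

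Between 11687034 and 36964427 reads per tumour were counted to genes. Abundance is given as CPM, the count per 1000000 counts of a library after TMM scaling, where 3 counts correspond to 0.0812 to 0.257 CPM depending on the library. Tumours 05, 06 and 07 held 47.1 to 83.5 CPM of Rpph1 and Rmrp, RNAs without a poly(A) tail, against 1.54 to 6.46 CPM in the other 7. The 7 measured hepatocyte markers summed to 31281 to 52338 CPM, with Fgb (fibrinogen) at 12830 CPM in tumour 06 and 5701 CPM in tumour 05. Red blood cell markers were highest in tumour 07 at 6181 CPM in sum and stromal markers in tumour 09 at 1756 CPM. Of the 7 adipocyte markers, Lep had no count in any tumour and Adipoq and Retn had no more than 1 count, whereas Cidec (50.9 to 291 CPM) and Fabp4 (5.95 to 98.9 CPM) were detected. In bulk tissue a lower value cannot be told apart as fewer cells of a type or less RNA per cell.

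Per length of exon, fatty acid genes held the highest levels. Scd1, the Δ9 desaturase that makes oleate and palmitoleate, had a median of 546 CPM per kilobase, and its lowest tumour (351 CPM per kilobase) lay above the highest tumour of Fasn (193 CPM per kilobase). Fasn (median 148), the desaturases Fads1 (124) and Fads2 (118) and the sterol gene Hmgcs1 (105 CPM per kilobase) followed, with ranges over tumours that overlapped. The lowest medians per kilobase were 0.917 for Pnpla3, 1.26 for Idi1 and 3.39 for Acaca. For some genes the level is uncertain because near-identical copies exist. Of the 36-base words in annotated Idi1 transcripts, 18.0% also occur in transcripts of other genes, mostly the pseudogene Idi1-ps1, and the share was 30.3% for Acaca, 15.6% for Me1 and 13.0% for Fdps. It exceeded 10% in 6 of the 37 genes and was 0 in 8, Fasn and Nsdhl among them.

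**Figure D1:**
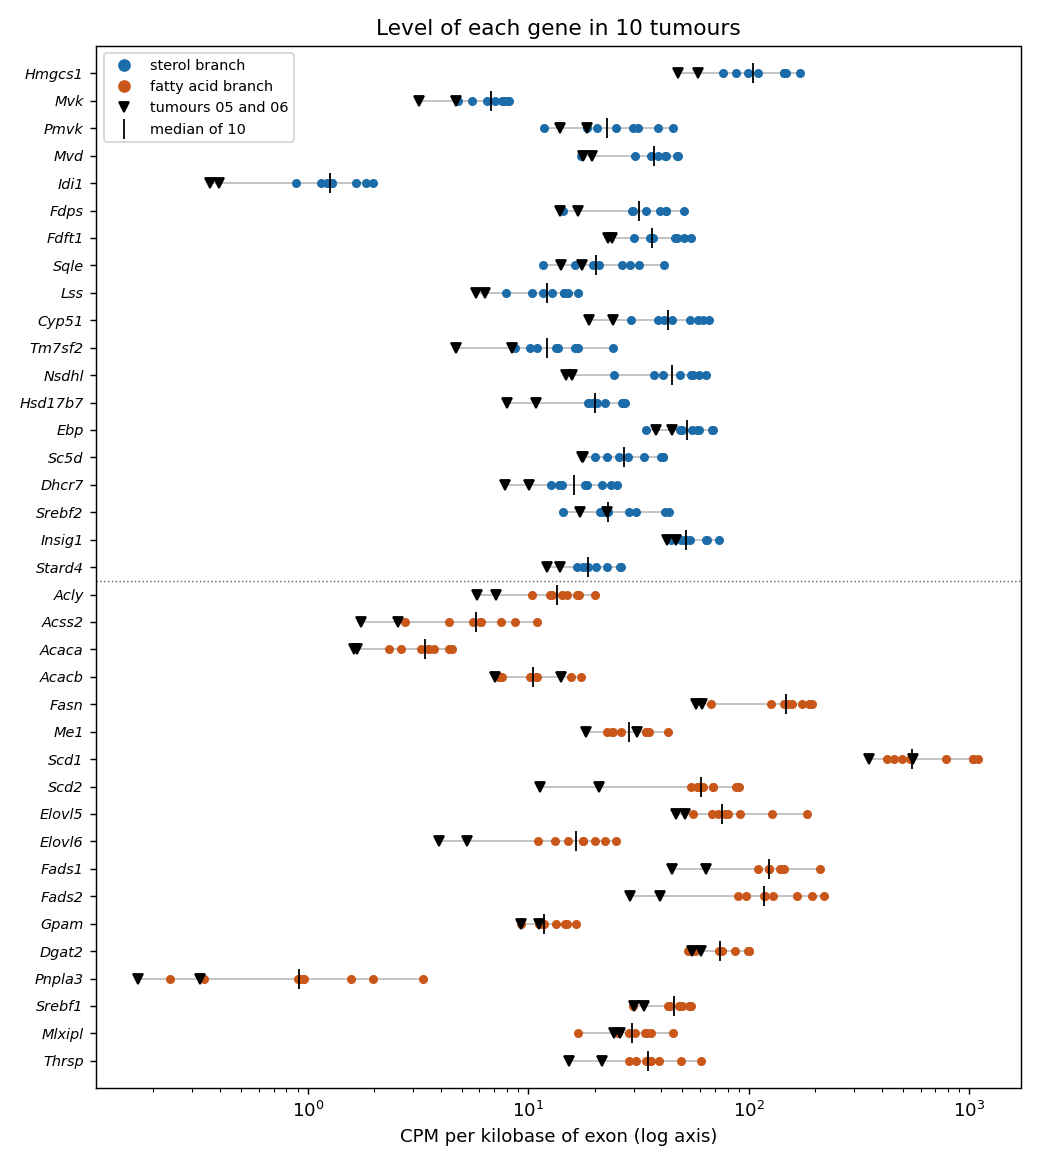
Level of each of the 37 genes in the 10 tumours, in CPM per kilobase of exon on a log axis, with 1 point per tumour, triangles for tumours 05 and 06 and a bar at the median. Scd1 lies farthest to the right with a median of 546 and Pnpla3 farthest to the left with a median of 0.917 CPM per kilobase, and the triangles sit at the lower end for most genes.

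The mevalonate steps came first in the sterol branch. Hmgcs1, the cytosolic HMG-CoA synthase, ranged from 252 CPM in tumour 05 to 901 CPM in tumour 04 with a median of 553 CPM. Tumours 05 (252 CPM) and 06 (311 CPM) lay below all other tumours. Mvk, mevalonate kinase, ranged from 35.6 to 91.0 CPM (median 75.5), again with tumours 05 and 06 lowest. Pmvk and Mvd, which phosphorylate and decarboxylate the next intermediates, had their lowest value in tumour 09 (44.9 and 47.4 CPM), and their top values were 174 CPM (tumour 08) and 130 CPM (tumour 04). Idi1, the isopentenyl isomerase, was counted at 1.27 to 7.02 CPM. Fdps, which makes farnesyl diphosphate, ranged from 67.9 CPM in tumour 06 to 249 CPM in tumour 07 (median 156), and tumour 09 at 70.4 CPM lay next to tumour 06.

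From squalene onwards, Fdft1 (squalene synthase) ranged from 110 to 261 CPM with a median of 174 CPM. Sqle, the squalene epoxidase that makes the first oxygenation of the sterol pathway, ranged from 104 CPM in tumour 09 through a median of 180 CPM to 366 CPM in tumour 04. Its order differed from that of Hmgcs1, since tumours 06 (125 CPM) and 07 (144 CPM) followed tumour 09 and tumour 05 held 156 CPM. Lss, which cyclises the epoxide to lanosterol, ranged from 65.5 to 190 CPM, and Cyp51, the lanosterol demethylase, from 112 to 390 CPM, and in both genes tumours 05 and 06 were lowest. Nsdhl, a C4 demethylase component encoded on the X chromosome, had the highest SD of log2 CPM among the sterol genes after Idi1. Its values were 57.9 CPM (tumour 05) and 54.6 CPM (tumour 06), below the 90.6 to 236 CPM of the other 8. Hsd17b7, its partner in C4 demethylation, spanned 41.2 to 140 CPM, and Tm7sf2, a C14 sterol reductase, 23.2 to 119 CPM with the top value in tumour 12. The late enzymes Sc5d (108 to 251 CPM) and Dhcr7 (64.1 to 206 CPM) had tumours 05 and 06 lowest, whereas Ebp, the Δ8-Δ7 isomerase, spanned only 140 to 280 CPM and was lowest in tumour 07.

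The sterol regulators did not share that order. Srebf2 ranged from 135 CPM in tumour 09 to 407 CPM in tumour 11 with a median of 214 CPM, and tumour 05 (213 CPM) lay at the median. Insig1, which retains the SREBP complex in the endoplasmic reticulum, had the smallest range of all 37 genes, from 209 CPM in tumour 05 to 357 CPM in tumour 07, a factor of 1.71. Stard4, a cytosolic sterol carrier, ranged from 74.4 to 162 CPM with tumours 05 and 06 lowest.

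In the fatty acid branch Fasn fell into separate clusters. It was counted at 675 CPM in tumour 05, 714 CPM in tumour 06 and 788 CPM in tumour 09, and at 1475 to 2254 CPM in the other 7, with a median of 1728 CPM over all 10. Acly, the citrate lyase that supplies acetyl-CoA, ranged from 85.4 to 293 CPM (median 197), and Acaca, the carboxylase that makes malonyl-CoA, from 29.7 to 82.7 CPM (median 62.3). Both were lowest in tumours 05 and 06, and both were highest in tumour 13. Acss2, which makes acetyl-CoA from acetate, varied by a factor of 6.31, from 34.4 CPM in tumour 06 to 217 CPM in tumour 08. Acacb, the carboxylase isoform of the mitochondrial membrane, ran in another order, with 144 CPM in tumour 05 above the median of 107 CPM. Me1, a malic enzyme that supplies NADPH, ranged from 111 to 263 CPM, and tumour 05 (190 CPM) was above its median as well.

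Desaturases and elongases gave some of the widest ranges. Scd1 was at 7917 CPM in tumour 04, 7511 CPM in tumour 07 and 7475 CPM in tumour 08, above the 2526 to 5629 CPM of the other 7. Scd2, the isoform that is usually low in adult liver, was at 85.0 CPM (tumour 06) and 158 CPM (tumour 05), below the 410 to 678 CPM of the other 8. Elovl6, which extends palmitate to stearate, showed the same split, with 33.4 CPM (tumour 05) and 44.7 CPM (tumour 06) below the remaining 94.3 to 212 CPM. Fads1 and Fads2 make polyunsaturated fatty acids. Fads2 ranged from 188 CPM (tumour 05) to 1436 CPM (tumour 12), and the tumours that share a tag, 11 to 13, were its 3 highest at 1083 to 1436 CPM. Fads1 ranged from 251 to 1172 CPM with the same tumours at both ends. Elovl5 instead was highest in tumours 07 (1040 CPM) and 08 (719 CPM), which share a tag, and lay between 266 and 517 CPM elsewhere.

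The steps into glycerolipids varied little. Gpam, the acyltransferase that starts triglyceride synthesis, ranged from 105 to 188 CPM, a factor of 1.79, and Dgat2, which adds the last acyl chain, from 320 to 605 CPM, a factor of 1.89. Pnpla3, a lipid droplet protein, was the exception in the group and the most variable of all 37 genes. Between tumour 06 (0.910 CPM) and tumour 04 (17.7 CPM) it differed by a factor of 19.4, with a median of 4.88 CPM. Among the lipogenic regulators, Srebf1 was lowest at 175 CPM (tumour 09) and 177 CPM (tumour 06) and highest at 323 CPM (tumour 13). Mlxipl ranged from 118 CPM (tumour 09) to 318 CPM (tumour 11), and tumour 05 at 183 CPM was within the range of the others. Thrsp, a nuclear protein of lipogenic tissue known as Spot 14, ranged from 33.7 CPM in tumour 06 to 134 CPM in tumour 10.

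Tumours 05 and 06 were the pair in which both branches were low. The median deviation of the sterol genes from their means over tumours was -0.83 (log2) in tumour 05 and -0.69 in tumour 06, and that of the fatty acid genes -0.78 and -0.83. Tumour 09 followed with -0.43 for the sterol genes and -0.10 for the fatty acid genes, and the other 7 tumours lay between -0.00 and 0.48 for the sterol genes and between 0.16 and 0.38 for the fatty acid genes. Tumour 06 was below the mean for 37 of 37 genes and tumour 05 for 35, beside 6127 and 6152 of all 12462 genes. Tumour 05 held the lowest value of 14 genes and tumour 06 of 15, beside 15.6% and 7.32% of all genes. The pair formed the 2 lowest values in 22 of the 37 genes, 12 of the sterol and 10 of the fatty acid branch, against 7.25% of all genes tested. Over all genes the median deviation of these tumours was 0.01 in both. They also share a tag, the high Rpph1 and Rmrp and the highest Fgb, and the part of these in the low values was not tested. Tumour 07, with the highest Rpph1 and Rmrp (83.5 CPM), was at -0.00 for the sterol and 0.29 for the fatty acid genes.

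**Figure D2:**
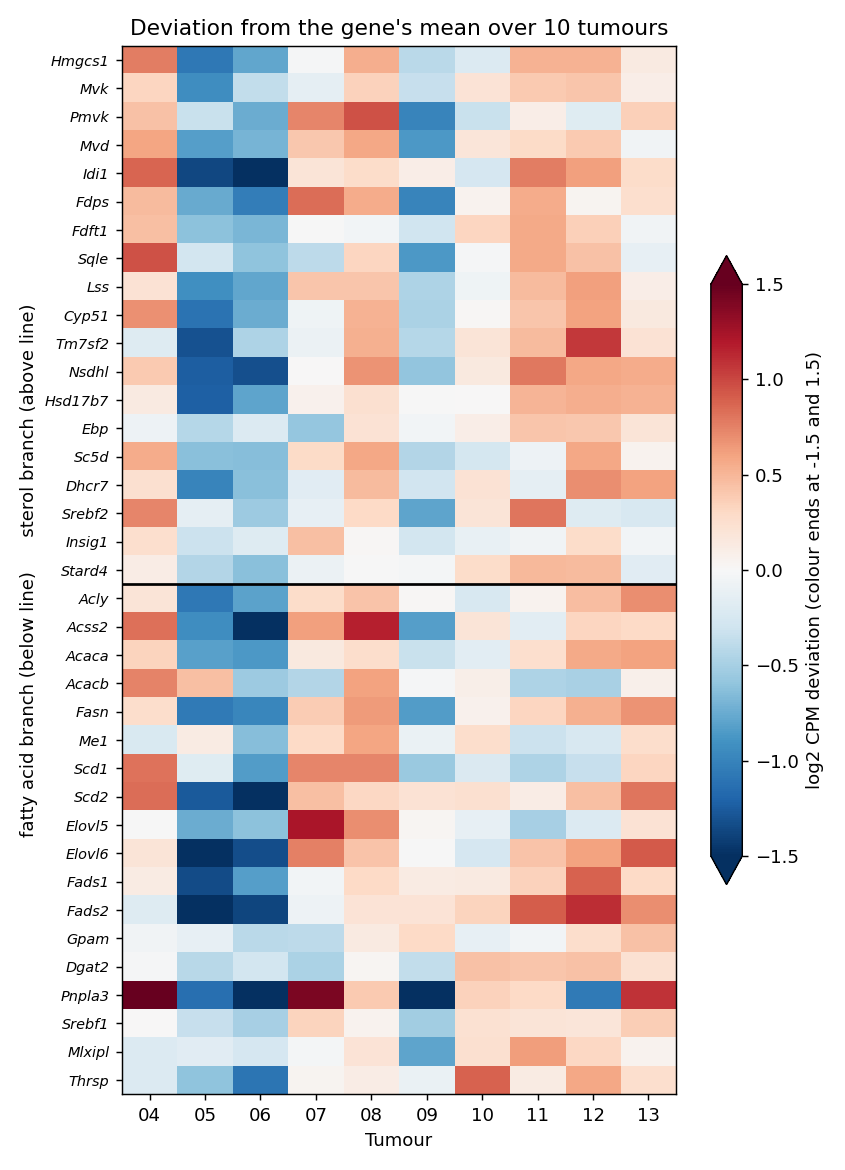
Deviation of each gene from its mean over the 10 tumours (log2 CPM, colour scale ending at -1.5 and 1.5), with sterol genes above the line and fatty acid genes below. Tumours 05 and 06 form the blue columns, tumour 06 being below the mean for 37 of 37 genes, and tumour 09 is below it for 30. Of all 12462 genes, 6127 are below the mean in tumour 06 and 6287 in tumour 09.

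The difference between the branches within a tumour was small beside that. The sterol median minus the fatty acid median was highest in tumour 11 at 0.32 and tumour 04 at 0.28, and lowest in tumour 09 at -0.32 and tumour 07 at -0.29. The order depended on the summary, since with means in place of medians tumour 13 was lowest at -0.31, tumour 09 was at -0.16 and tumour 04 at 0.11. Within a tumour the genes of the sterol branch scattered with an SD of 0.197 to 0.385 and those of the fatty acid branch with an SD of 0.290 to 0.628. In tumour 13, which held the highest value of 6 fatty acid genes and of 0 sterol genes, the difference was -0.21. Tumours 04, 11 and 12 each held the highest value of 5 sterol genes. Over all 12462 genes the highest value was in tumour 04 for 918, in tumour 11 for 1286, in tumour 12 for 1432 and in tumour 13 for 1021. No test was made on these medians, because the genes of a branch are not replicates.

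**Figure D3:**
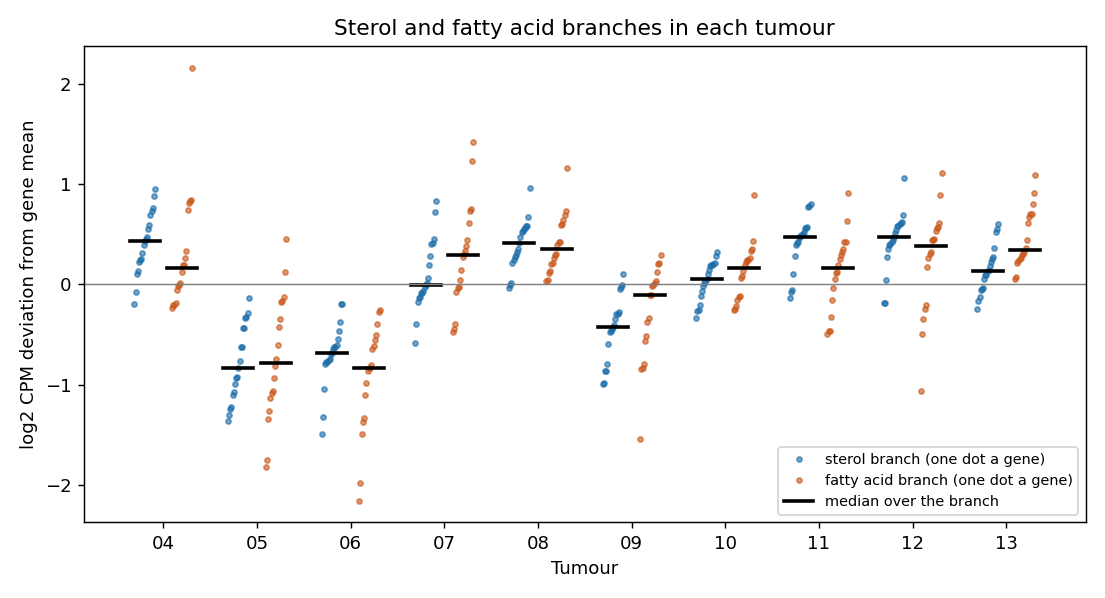
Deviation from the gene mean (log2 CPM) in each tumour, with 1 dot per gene, the sterol branch on the left and the fatty acid branch on the right of each tumour and a bar at the branch median. The bars are lowest in tumour 05, at -0.83 and -0.78, and in tumour 06, at -0.69 and -0.83.

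The median SD of log2 CPM over tumours was 0.57 for the sterol and 0.58 for the fatty acid genes, beside 0.33 over all genes tested. An SD above 0.5 was reached by 25 of the 37 genes, where the background was 24.7%, and an SD above 1 by 1 gene, Pnpla3 (SD 1.37), where the background was 5.18%. Without tumours 05 and 06, left out after seeing the data, 8 of the 37 had an SD above 0.5, where the background was 21.6%. The median SD was then 0.40 for the sterol and 0.38 for the fatty acid genes, beside 0.31 over all genes.

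The slope of every gene on Fasn over the 10 tumours was then tested with edgeR's quasi-likelihood test, with Benjamini-Hochberg adjustment over 12461 genes. The slope is the log2 change of a gene per log2 unit of Fasn. Of the 36 genes of the set other than Fasn, 13 passed with a positive slope and 0 with a negative one, beside a background of 0.433% of all genes with a positive and 1.08% with a negative slope. They were 9 sterol genes (Hmgcs1, Mvd, Fdps, Lss, Cyp51, Nsdhl, Hsd17b7, Sc5d and Dhcr7) and 4 fatty acid genes (Acly, Acss2, Acaca and Elovl6). With Acly as the reference gene 9 genes of the set and 272 in all passed, 4 sterol and 5 fatty acid genes, and 6 of the 9 were among these 13. Nsdhl had a slope of 1.07 ± 0.141 (SE; adjusted p = 0.0094) and Acaca of 0.72 ± 0.103 (adjusted p = 0.0116). Lss followed with 0.75 ± 0.115 (adjusted p = 0.0168) and Acss2 with 1.12 ± 0.192 (adjusted p = 0.024). The slopes of all 36 were above 0, as were 50.1% of slopes over all genes, and 31 of the 36 had an unadjusted p under 0.05 with a positive slope, where the background was 8.62%. None of the 36 had one with a negative slope (background 10.6%). Srebf1 (0.44 ± 0.0985, adjusted p = 0.052), Mvk (0.54, adjusted p = 0.055) and Tm7sf2 (0.79, adjusted p = 0.0555) lay just beyond the threshold. Acacb (0.04 ± 0.216), Gpam (0.14 ± 0.132) and Me1 (0.23 ± 0.159) had the lowest slopes.

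The calls depended on the tumours and on the tags. With a term for the tag family, the first part of a tag, 1 of the 13 was still called, while the 13 slopes stayed at 0.59 to 1.10, each with an unadjusted p under 0.05. With a term for each tag 0 were called, with Elovl6 at a slope of -0.10 and 3 of the 13 at an unadjusted p under 0.05. The number called was 0 without tumour 05 and 1 without tumour 06, while the 13 slopes were 0.53 to 1.21 and 0.61 to 0.99, each with an unadjusted p under 0.05. Over all genes 5 passed without tumour 05 and 25 without tumour 06, where 189 passed over the 10 tumours. The number called in the set was 6 without tumour 08 (109 genes in all), 8 without tumour 10 (125), 7 without tumour 11 (61), 5 without tumour 12 (43) and 7 without tumour 13 (52). It was 13 without tumour 04 (278), 11 without tumour 07 (184) and 17 without tumour 09 (425). In each of these fits the 13 slopes were positive with an unadjusted p under 0.05. Without both tumours 05 and 06, 0 genes of 12791 passed in edgeR's test, while 934 had an unadjusted p under 0.05 and 14 genes of the set had one with a positive slope. In these 8 tumours the 13 slopes were all positive, from 0.32 (Hsd17b7) to 1.01 (Acss2). Fasn itself leaves a gap between tumours 05, 06 and 09 and the others. Within the 7 tumours above the gap, a set chosen after seeing the data, 0 of 13060 genes passed and 478 had an unadjusted p under 0.05. There 26 of the 36 slopes were positive, 3 of them with an unadjusted p under 0.05. The lowest slope was -1.17 among the fatty acid and -1.03 among the sterol genes, and among the 13 Mvd had a slope of -0.068. Within the 7 tumours with low Rpph1 and Rmrp, 0 genes passed as well, while 15 of the 36 and 1308 genes in all had an unadjusted p under 0.05, the 15 with positive slopes. A graded relation to Fasn among the tumours above the gap was thus not shown.

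**Figure D4:**
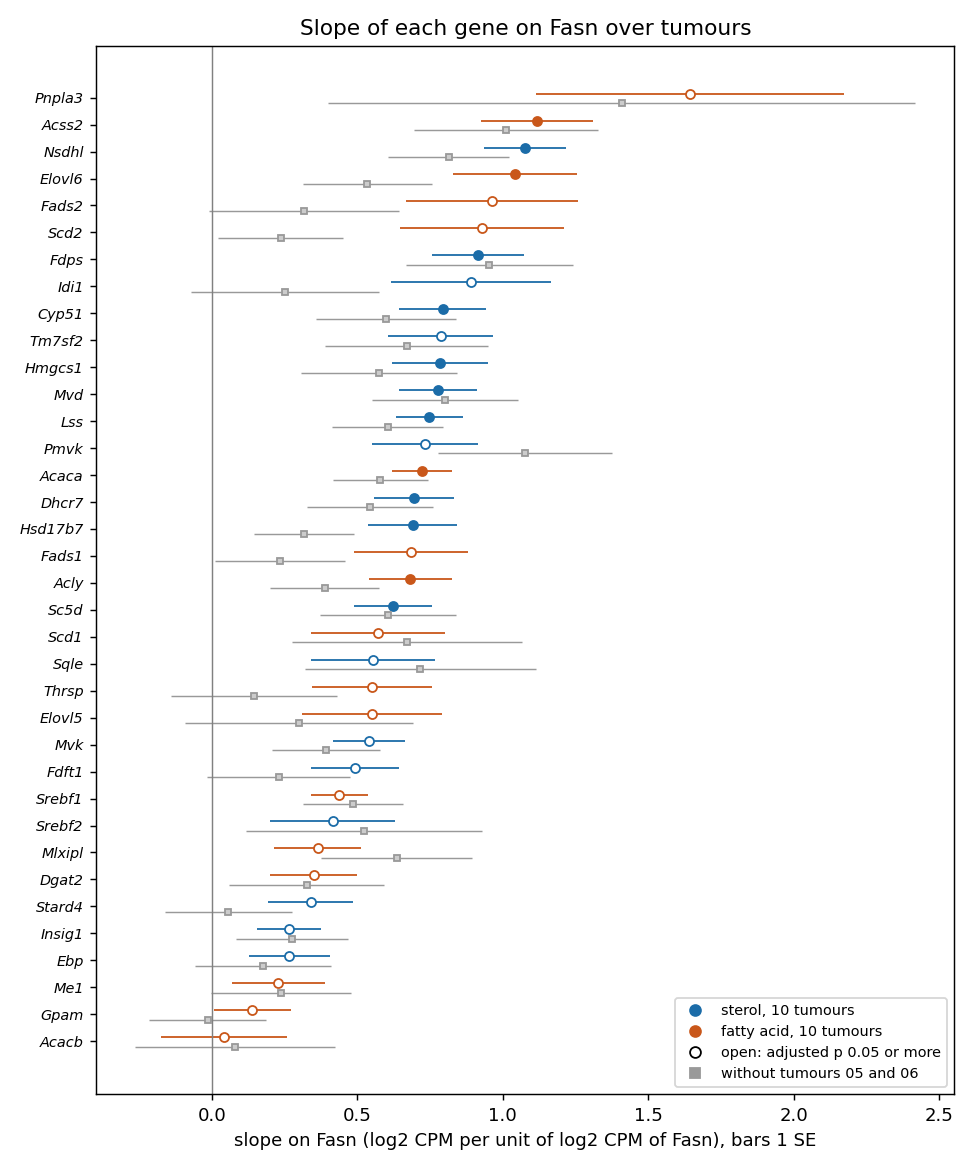
Slope of each of 36 genes on Fasn (log2 CPM per log2 CPM of Fasn, bars 1 SE) over 10 tumours, filled where the adjusted p was under 0.05, with grey squares for the fit without tumours 05 and 06. Acss2 has 1.12 over 10 tumours and 1.01 over 8, and Elovl6 has 1.04 and 0.53.

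With Sqle in place of Fasn, 0 of 12461 genes passed edgeR's test, a background of 0.0%, while 823 had an unadjusted p under 0.05 and DESeq2's Wald test called 22. Of the 36 genes other than Sqle, 17 had an unadjusted p under 0.05 with a positive slope, beside 3.70% of all genes, and 12 of these were sterol genes. With a negative slope it was 0 (background 2.91%), and 34 of the 36 slopes were above 0 (background 48.5%). The 17 became 8 without tumour 06, all sterol genes, 11 without tumour 09 and 20 without tumour 07. Over all genes, either direction, 561, 729 and 988 had an unadjusted p under 0.05 in these fits. With the tag family as a term the count was 27 (1242 genes in all), and with each tag 6 positive and 2 negative (1226). Over the 10 tumours without such terms, the smallest p was that of Srebf2, with a slope of 0.81 ± 0.159 (adjusted p = 0.52). It was 0.53 ± 0.151 with the chromosome 15 median in the fit, a term added after seeing the data because both genes lie there. Cyp51 (0.84 ± 0.201) and Hmgcs1 (0.84 ± 0.204) both had an adjusted p of 0.634. The lowest slopes were -0.14 ± 0.355 for Elovl5, -0.017 ± 0.230 for Me1 and 0.045 ± 0.173 for Gpam. When the slopes on Sqle and on Fasn were fitted together, each per SD of its reference gene, and compared, 0 of 12460 genes passed in edgeR, with 1487 at an unadjusted p under 0.05 and 144 called by DESeq2's Wald test. Of the 35 genes other than the reference genes, 5 had a difference above 0 (background 50.4%). At an unadjusted p under 0.05 it was 1 gene with a positive difference (background 6.78%) and 10 with a negative one (background 5.15%). This lean to Fasn depended on the reference gene, on the tags and on single tumours. With Hmgcs1 in place of Sqle 14 of 35 differences were above 0 and 1 was negative at an unadjusted p under 0.05, and with Idi1 and Acly as references 19 were above 0, with 3 positive and 0 negative at that level. With a term for the tag family 14 were above 0 and 0 were negative at that level, and without tumours 05 and 06 it was 11 and 2. Over all genes, either direction, 464, 587, 414 and 671 had an unadjusted p under 0.05 in these 4 fits, below the 1487 of the fit on Sqle and Fasn. With 1 tumour left out, the negative differences at that level numbered 5 without tumour 05 (759 genes in all, either direction) and 4 without tumour 06 (1350). They numbered 4 without tumour 10 (1381) and 10 without tumour 09 (1480). Srebf2 leaned to Sqle with a difference of 0.50 ± 0.212 (adjusted p = 0.398), which was 0.10 ± 0.190 with the chromosome 15 median in the fit. Elovl6 (-1.21 ± 0.295, adjusted p = 0.267), Elovl5 (-1.07 ± 0.290, adjusted p = 0.287) and Acly (-0.76 ± 0.216, adjusted p = 0.298) leaned to Fasn. No gene of the set was therefore shown by edgeR's test to follow one branch rather than the other, and DESeq2 called 1, leaning to Fasn.

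For 6 gene pairs the correlation over tumours was tested with two-sided permutation tests and adjusted over the 6. Srebf2 and Sqle had r = 0.878 (permutation p = 0.00084, adjusted p = 0.00504) and rho = 0.794 (permutation p = 0.0088, adjusted p = 0.0528). Leaving out tumours 04 and 11, the farthest from the median of Srebf2, gave r = 0.767 (exact permutation p = 0.0249). The value was 0.857 without tumours 05 and 06, and 0.867 within the 7 tumours with low Rpph1 and Rmrp (exact permutation p = 0.0123). Without tumours 05, 06 and 09 r was 0.739 (exact permutation p = 0.0615). Both genes lie on chromosome 15, Sqle at chr15:59315092-59331193 and Srebf2 at chr15:82147269-82205379 (GRCm38), where the median deviation of 477 genes ran from -0.24 in tumour 12 to 0.30 in tumour 04. With that median subtracted from both genes r was 0.825, and on deviations from the means of the tag families it was 0.886. Insig1 and Sqle had r = 0.470 (permutation p = 0.171) and rho = 0.479, and r was 0.858 without tumours 07 and 12 (exact permutation p = 0.00625) but -0.0521 without tumours 05, 06 and 09 (exact permutation p = 0.908).

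For the 4 pairs that hold Fasn no r over all 10 tumours is given, because Fasn falls into separate clusters. Within the 7 tumours with higher Fasn, Srebf1 and Fasn had r = 0.131 (exact permutation p = 0.76) and Mlxipl and Fasn r = -0.031 (exact permutation p = 0.949). Thrsp and Fasn had r = -0.263 (exact permutation p = 0.565), and Sqle and Fasn, the reference genes of the branches, r = -0.131 (exact permutation p = 0.782). The 3 tumours with low Fasn are too few for a value. Srebf1 separated the clusters as well, since tumours 05, 06 and 09 held 175 to 198 CPM and the other 7 no less than 252 CPM.

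**Figure D5:**
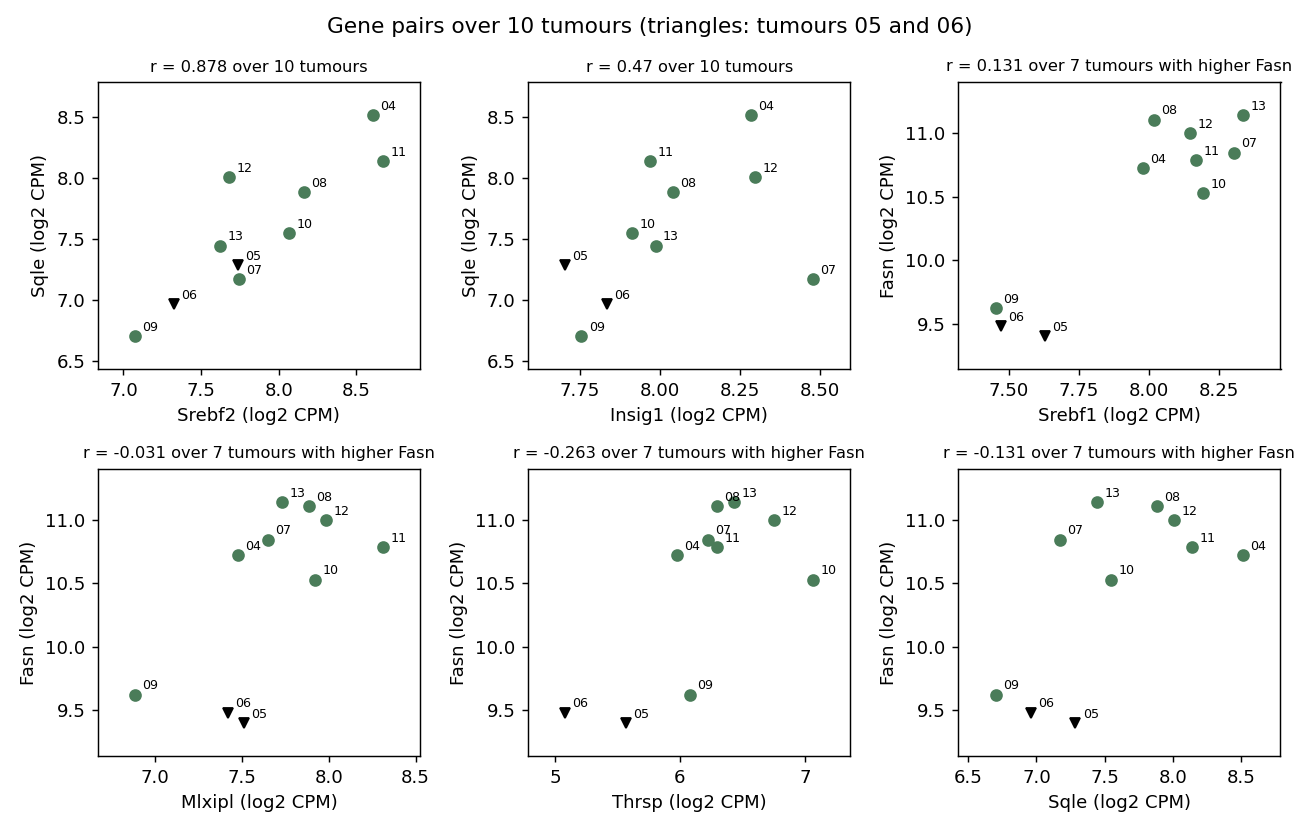
Log2 CPM of 6 gene pairs in the 10 tumours, 1 panel per pair, each point a tumour with its number and triangles for tumours 05 and 06. Srebf2 and Sqle have r = 0.878 over the 10 tumours without keeping the same order throughout, whereas Fasn leaves a gap between tumours 05, 06 and 09 and the other 7.

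Over all pairs of genes in the set, Pearson's r of log2 CPM over the 10 tumours is given as a description, since the pairs share the same 10 libraries. The median r was 0.741 for the 171 pairs of sterol genes, 0.571 for the 153 pairs of fatty acid genes and 0.629 for the 342 pairs with a gene from each. Over all pairs of genes tested it was -0.001. Of the sterol pairs 170 had a positive r, of the fatty acid pairs 140 and of the mixed pairs 327, beside 49.9% of all gene pairs. Without tumours 05 and 06 the medians were 0.565, 0.284 and 0.317 in the same order. Within the 7 tumours with higher Fasn they were 0.328, 0.104 and 0.0281, and 128, 89 and 182 of the pairs were positive. On deviations from the means of the tag families, with all 10 tumours, the medians were 0.781, 0.550 and 0.628.

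Of 13 further sterol genes, 1 passed the slope on Fasn. It was Acat2, the cytosolic thiolase at the head of the pathway (0.95 ± 0.176, adjusted p = 0.031), which ranged from 29.2 CPM in tumour 05 to 135 CPM in tumour 04. Msmo1, the C4 sterol methyl oxidase (0.80, adjusted p = 0.0598), did not pass but had tumour 05 lowest. Soat1, which esterifies cholesterol, had a slope of -1.31 (adjusted p = 0.134). Msmo1 and Soat1 are named after their values were seen. Of 18 further fatty acid and glycerolipid genes and of 8 genes of the oxysterol receptor LXR and its efflux targets, 0 passed edgeR's test for the slope on Fasn. At an unadjusted p under 0.05 there were 4 positive and 2 negative slopes among the 13 sterol genes, 6 positive ones among the 18, and 2 positive and 1 negative among the 8, beside 8.62% (positive) and 10.6% (negative) of all genes. Of the 13 slopes of the sterol genes 6 were above 0. With Sqle as reference 0 of the 13, 18 and 8 genes passed. At an unadjusted p under 0.05 there were 3 positive and 2 negative slopes among the sterol genes, 3 positive ones among the fatty acid genes and 0 among the LXR genes, beside 3.70% (positive) and 2.91% (negative) of all genes.

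Of the 5 genes outside the set with the smallest p for the slope on Fasn, 3 share sequence with Fdps. They are the processed pseudogenes Gm3571 (slope 1.06 ± 0.0956, adjusted p = 0.00117), Gm8163 (1.13 ± 0.114, adjusted p = 0.00226) and Gm5873 (0.93 ± 0.107, adjusted p = 0.00444). Of their 36-base words, 63.0%, 23.0% and 35.5% occur in Fdps transcripts. Gm3571 was counted at 62.3 to 227 CPM, and how reads were split between Fdps and these pseudogenes is uncertain. The other 2 had negative slopes. Hmox1, the inducible heme oxygenase, had a slope of -2.10 ± 0.229 (adjusted p = 0.00363) and was at 792 CPM in tumour 05, where the median was 71.4 CPM. Csrnp1, an immediate early gene, had a slope of -1.24 (adjusted p = 0.00444). For the slope on Sqle the 5 were Gm45753, Igfals, 1600014C10Rik, Emp2 and Tsc22d3, with adjusted p of 0.381 to 0.52.

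Promoters are described because genes of both branches were low in tumours 05 and 06. RefSeq windows from 250 bases before to 50 after the start site (GRCm38.p6) were found for 29 of the 37 genes. The stretches below are the 180 bases upstream of the start in 3 sterol genes and Fasn, written 5′ to 3′ on the strand of the gene. Capitals mark CCAAT on either strand (ATTGG on the reverse) and, in Hmgcs1, the sterol regulatory element TCACNCCAC.
Hmgcs1, chr13:119690171-119690350, plus strand: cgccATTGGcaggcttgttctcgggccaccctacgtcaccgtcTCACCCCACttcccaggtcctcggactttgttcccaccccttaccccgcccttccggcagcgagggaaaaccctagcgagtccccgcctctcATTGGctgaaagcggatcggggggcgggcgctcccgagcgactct
Mvk, chr5:114444089-114444268, plus strand: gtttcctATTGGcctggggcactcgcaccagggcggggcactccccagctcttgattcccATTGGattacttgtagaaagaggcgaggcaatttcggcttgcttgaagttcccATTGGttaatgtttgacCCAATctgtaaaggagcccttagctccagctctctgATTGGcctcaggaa
Nsdhl, chrX:72918341-72918520, plus strand: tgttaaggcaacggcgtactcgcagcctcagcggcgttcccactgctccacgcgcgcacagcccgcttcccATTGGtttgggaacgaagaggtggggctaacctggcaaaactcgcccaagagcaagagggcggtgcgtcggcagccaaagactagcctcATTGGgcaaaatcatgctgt
Fasn, chr11:120824548-120824727, minus strand: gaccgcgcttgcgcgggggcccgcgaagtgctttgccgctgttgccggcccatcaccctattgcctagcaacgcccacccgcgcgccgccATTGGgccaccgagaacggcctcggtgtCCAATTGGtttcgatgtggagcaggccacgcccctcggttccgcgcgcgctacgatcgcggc
CCAAT, the box bound by NF-Y, occurred 5 times in the Mvk stretch, 3 times in that of Fasn, with 2 copies overlapping, and 2 times each in Hmgcs1 and Nsdhl. In the whole windows it was present in 26 of 29 genes (89.7%), 15 of 15 sterol and 11 of 14 fatty acid genes, beside 41.1% of 27025 genes with a window. GGGCGG, the GC box, was present in 22 (75.9%), beside 38.2%. CACGTG, the E-box that MYC with MAX and also ChREBP can bind, was present in 6 (20.7%), beside 8.09%, and these were Dhcr7, Hsd17b7, Insig1, Sc5d, Elovl5 and Mlxipl. TCACNCCAC was present in Hmgcs1 and Mlxipl, 6.90% beside 1.44%. Both strands were searched in each case. The 29 genes all passed the filter on low counts, whereas the 27025 were not limited to genes counted in these tumours. A match describes the letters of the window and was not tested as a binding site.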

How the data were processed

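RNA of whole tumours was extracted with Trizol, prepared with the Illumina TruSeq stranded mRNA kit and sequenced as paired reads of 36 cycles each. The values are raw read counts per Ensembl gene as the authors deposited them, with no normalization. The submitters' processing notes name TopHat2, HTSeq and GRCm38 without versions. The methods of the study name other programs for RNA-seq in general, and the strand setting is not given in the sources used here. Of 19 count columns, 10 were matched to tumours by the number in the column name, and the 9 others were not used. The 5 summary lines of the table, which took 51.7% to 66.0% of the entries (alignments that were not unique 45.4% to 57.9%), were left out of library sizes. These are shares of entries and not of reads. Floors of 3 counts cover counting error only.

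Symbols and exon lengths came from GENCODE M39 (34199 of 39179 identifiers, 87.3%, had a symbol), and GRCm38 positions and promoters from RefSeq. Counts were scaled by TMM and turned into log2 CPM with a prior count of 2 in R 4.3.3 with edgeR 4.0.16 and limma 3.58.1. The filterByExpr function kept 12462 genes, and 24682 had at least 1 count. Slopes on log2 CPM of Sqle or Fasn were tested with edgeR's quasi-likelihood test on the counts, with Benjamini-Hochberg adjustment over all genes tested and a threshold of 0.05. Correlations were tested in Python 3.11.15 with scipy 1.17.1, numpy 2.4.6 and pandas 2.3.3, with 100000 resamples for 10 tumours and exactly for fewer. Figures were drawn with matplotlib 3.10.9. Words of 36 bases, the read length, were compared between all annotated transcripts. The edgeR fit for the slope on Sqle was tested on simulated data, whereas the slope on Fasn and the difference of the slopes were not.

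The genes and lists were chosen with earlier results of these data known. All 37 genes of the set could be named, with the 5 other genes of smallest p for each slope and any listed pathway gene that passed. The remaining genes named were chosen after their values were seen. Of 92 listed genes outside the set, 1 (the marker Tf) had no match. Alternatives were DESeq2 1.42.0 (size factors and Wald test), limma-voom, no filter, a prior count of 0.5, the column tags as terms, other reference genes and leaving out tumours. The settings without tumours 05 and 06, without these and tumour 07 or 09, with each tag as a factor, with the chromosome 15 median and with Hmgcs1 as reference were chosen after seeing the data. Dixon's check for a tumour far from the others was run on 40 measures, each over 10 tumours (critical value 0.466), and found 0, where chance gives 2. It sets an extreme value against its neighbour and can miss 2 tumours that are low together, as 05 and 06 were in 22 of the 37 genes.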

Additional observations from a re-analysis of the deposited data

How the results depend on the processing

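No paired analysis was possible because the control columns were not matched to samples, so that 1 group remained. For the slope on Fasn, 13 genes of the set and 189 genes in all passed. DESeq2's Wald test called 23 and 874, the fit without a filter 8 and 111, a term for the tag family 1 and 28, and a term for each tag 0 and 1. Without tumours 05 and 06, without these and tumour 07, and without these and tumour 09, 0 and 0 passed. With the chromosome 15 median in the fit 16 and 320 passed. Leaving out 1 tumour gave 0 to 17 genes of the set and 5 to 425 genes in all, the lowest without tumour 05 and the highest without tumour 09. The slope of Elovl6 was -0.10 with a term for each tag, and that of Mvd -0.068 without tumours 05, 06 and 09. Over the whole set, the lowest slope on Fasn without tumours 05, 06 and 09 was -1.17 in the fatty acid and -1.03 in the sterol branch. For the slope on Sqle, where 0 passed, DESeq2 called 1 and 22, and a term for each tag 0 and 1. With Idi1 as reference 8 and 103 passed, and with Hmgcs1 as reference 5 and 36. For the difference of the slopes DESeq2 called 1 gene of the set, leaning to Fasn, and 144 in all, and the fit without a filter 1 in all. The cause of these shifts was not tested.

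Srebf2 and Sqle had r = 0.739 without tumours 05, 06 and 09. Insig1 and Sqle had r = 0.823 without tumours 05, 06 and 07 and -0.0521 without tumours 05, 06 and 09, and 0.342 to 0.826 with 1 tumour left out. The pairs with Fasn span separate clusters, and an r that covers both is given only to show how far it moves. Without tumours 05 and 06 it was 0.840 for Srebf1, 0.728 for Mlxipl, 0.217 for Thrsp and 0.578 for Sqle. Without tumour 07 as well it was 0.858 for Srebf1, 0.742 for Mlxipl, 0.242 for Thrsp and 0.661 for Sqle. With 1 tumour left out it was 0.868 to 0.939 for the gene pair Srebf1 with Fasn, 0.553 to 0.697 for Mlxipl, 0.559 to 0.815 for the gene pair Thrsp with Fasn and 0.541 to 0.726 for Sqle. Within the 7 tumours with higher Fasn it was 0.131 for Srebf1, -0.031 for Mlxipl, -0.263 for Thrsp and -0.131 for Sqle.

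Without tumours 05 and 06, 8 genes of the set and 2686 of 12462 genes (21.6%) had an SD above 0.5, and with 1 tumour left out 1 to 2 genes of the set and 572 to 711 genes in all had an SD above 1. Without the filter 9810 genes had an SD above 0.5 and 2066 above 1. The median r between branches was 0.317 without tumours 05 and 06. Without tumours 05, 06 and 09 the medians were 0.328 (sterol), 0.104 (fatty acid) and 0.0281 (between). Under DESeq2 size factors, with means in place of medians and with enzymes alone, tumours 05 and 06 stayed lowest in both branches, but other values moved. The fatty acid value of tumour 09 went from -0.10 to -0.28 with means and to -0.01 with enzymes alone. That of tumour 04 went from 0.16 to 0.31 with means. The difference of the branches in tumour 09 went from -0.32 to -0.16 with means and to -0.42 with enzymes alone. The 10 libraries of 1 group limit what any test could show, and genes at a few CPM, Pnpla3 and Idi1, rest on the fewest counts.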
